A study of Mus musculus with 9 samples.

Results

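The endoplasmic reticulum (ER) folding and secretory pathway genes are 44 listed genes for protein translocation into the ER, folding, disulfide formation, the response to unfolded protein, and vesicle transport out of the ER. Each was read through the probe set of highest mean signal among those annotated to that gene alone, which measured 42 of the 44, out of 18193 genes measured in all. Sec61g and Srp54a were present only on probe sets annotated to several genes, so no value is given for them. Ero1l and Ero1lb of the array annotation carry the current names Ero1a and Ero1b. The values are log2 microarray signals from epithelial cells of the mouse trachea, sorted into 3 gates by fluorescence-activated cell sorting, with 3 biological replicates in each gate and 1 array per replicate. All cells came from mice hemizygous for KRT5-GFP, a transgene whose name ties green fluorescent protein (GFP) to keratin 5 of basal cells, so all gates share that genotype. The GFP+ gate held cells positive for GFP and for the lectin GSI-A3B (KRT5-GFP+, lectin+). The lectin-only gate held cells that bound the lectin without GFP (KRT5-GFP-, lectin+), and both are called basal cells in the labels. The columnar gate held cells with neither mark (KRT5-GFP-, lectin-), called columnar epithelium in the labels. No treatment was applied beyond the digestion and the sort, and the labels do not say how many mice made up a replicate.

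Proteins bound for secretion or for a membrane enter the ER through the Sec61 channel, lose their signal peptide to the signal peptidase, and fold with the help of chaperones such as the Hsp70 protein Hspa5 (BiP) and of protein disulfide isomerases. When unfolded protein builds up, the sensors of the unfolded protein response, among them Ern1 and its epithelial relative Ern2, raise the expression of these genes through the transcription factors Xbp1, Atf6 and Atf4. Folded cargo leaves in vesicles coated with COPII, and ER residents that escape are fetched back from the Golgi by KDEL receptors. In the airway the columnar layer holds secretory (club and goblet) and ciliated cells, and mucus-making cells are known for a large secretory pathway.

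The gates fitted their labels in part. Of 10 basal cell markers, 9 were higher in the GFP+ than in the columnar gate and 9 also in the lectin-only gate when set against the columnar gate. All 9 measured ciliated cell markers were lower in the GFP+ gate, and 7 of 9 in the lectin-only gate, against the columnar gate. Club cell RNA was present in every gate, since the secretoglobin Scgb1a1 lay between 13.49 and 13.88 on all 9 arrays. The lectin-only gate also carried leukocyte RNA, with 13 of 14 leukocyte markers above the columnar gate. Of these 14, 5 were also higher in the GFP+ than in the columnar gate and 1, Lyz2, was lower, with a median difference of 1.62. Replicate 3 of the lectin-only gate stood apart, with a median signal of 5.44 over all probe sets against 4.91 to 5.16 on the other 8 arrays. In bulk RNA of this kind, fewer cells of a type and less RNA per cell cannot be told apart.

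The promoters of 6 members are shown first, chosen after their values were seen. In the RefSeq promoter table of build GRCm38.p6 (250 bases before to 50 bases after a gene's start), 32 of the 42 measured genes were found. Of the 6 genes called lower in the GFP+ gate, 3 (Ern2, Sec11c and Ssr2) are among those not searched. Kdelr3 and Sec24d, members that were lower in the GFP+ gate by 4.31-fold and 2.51-fold, were the only 2 of these 32 to hold TGACGTGG, the core of an element bound in the unfolded protein response. On the opposite strand this core reads CCACGTCA. Hspa5, Dnajc3, Pdia6 and Creld2, for which no difference between gates passed the test, are shown for contrast, each with the ER stress response element, which reads CCAAT, any 9 bases, then CCACG. The stretches run from 130 bases to 1 base before the start, 5′ to 3′ on the gene's strand, and capitals mark the motif. They lie at chr15:79516278-79516407 (Kdelr3, + strand), chr3:123267366-123267495 (Sec24d, + strand), chr2:34771960-34772089 (Hspa5, + strand), chr14:118937802-118937931 (Dnajc3, + strand), chr12:17266459-17266588 (Pdia6, + strand) and chr15:88819516-88819645 (Creld2, + strand). In Kdelr3 and in Creld2 the motif reads on the strand opposite to the gene.
Kdelr3: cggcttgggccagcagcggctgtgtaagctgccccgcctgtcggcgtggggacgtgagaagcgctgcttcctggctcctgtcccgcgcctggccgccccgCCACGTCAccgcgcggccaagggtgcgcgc
Sec24d: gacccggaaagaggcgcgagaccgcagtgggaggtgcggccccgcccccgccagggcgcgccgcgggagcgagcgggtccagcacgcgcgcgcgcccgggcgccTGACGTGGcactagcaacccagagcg
Hspa5: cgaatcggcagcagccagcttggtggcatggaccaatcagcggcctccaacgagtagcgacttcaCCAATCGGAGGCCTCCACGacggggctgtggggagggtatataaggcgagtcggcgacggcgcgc
Dnajc3: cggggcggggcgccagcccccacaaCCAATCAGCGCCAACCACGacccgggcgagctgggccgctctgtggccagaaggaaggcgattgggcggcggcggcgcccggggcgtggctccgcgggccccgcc
Pdia6: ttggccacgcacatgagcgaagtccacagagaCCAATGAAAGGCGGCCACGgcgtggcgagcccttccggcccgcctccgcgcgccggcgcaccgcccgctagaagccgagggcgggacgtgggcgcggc
Creld2: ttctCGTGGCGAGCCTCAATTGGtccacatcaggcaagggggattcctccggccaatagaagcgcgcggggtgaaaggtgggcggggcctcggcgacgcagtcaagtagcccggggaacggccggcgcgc

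**Figure D1:**
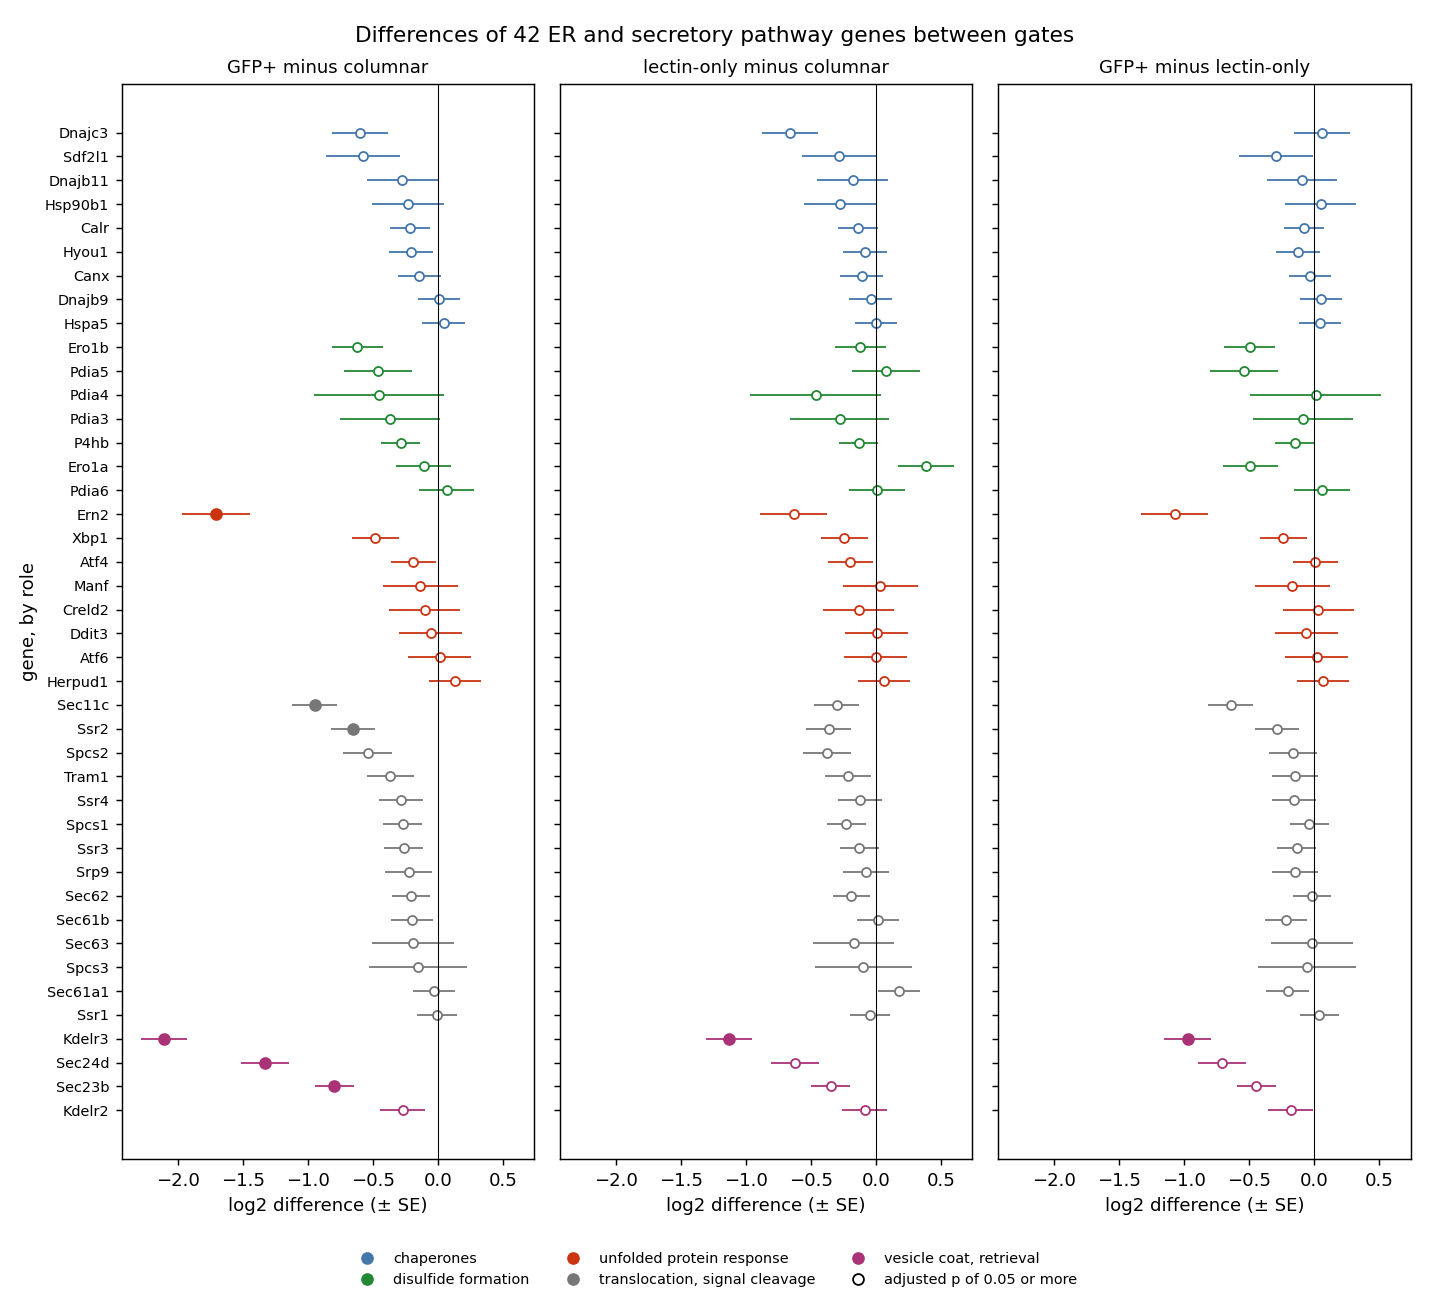
Log2 differences (x axis, with limma standard errors) of the 42 measured genes (y axis, grouped and coloured by role) in GFP+ minus columnar, lectin-only minus columnar and GFP+ minus lectin-only. Filled points passed the test, and the 6 filled points of the first panel all lie to the left of 0, led by Kdelr3 at -2.11 and Ern2 at -1.71.

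The first question was which of these genes differ between GFP+ basal cells and the columnar epithelium. In the GFP+ gate 6 of the 42 measured genes were lower and 0 were higher, at an adjusted p under 0.05 from limma over all 18193 genes. The lower 6 were Kdelr3, Ern2, Sec24d, Sec11c, Sec23b and Ssr2, at log2 differences from -2.11 to -0.66. The lower genes made up 14.3% of the 42, against 6.83% of all genes tested (percentage called lower), while 7.32% of all genes were called higher. With a filter on dim genes, 1261 of 13953 genes were called lower and 1392 higher, and the same 6 members were called. At an unadjusted p under 0.05, 10 of the 42 were lower and 0 higher. The share of all genes at this unadjusted threshold was not computed, so such counts, here and below, have no background beside them. With a further threshold of 2-fold, 3 of the 42 were lower (Kdelr3, Ern2 and Sec24d) and 0 higher, against 5.33% and 5.88% of all genes. The median difference of the 42 was -0.25, beside a median of -0.04 over all genes, and 32 of the 42 lay within 0.5 of 0 on the log2 scale. Without replicate 3 of the lectin-only gate, which enters the shared estimate of the spread, 8 genes were lower, the added ones being Ero1b and Dnajc3.

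Vesicle coat and retrieval genes held the largest decrease. Kdelr3, a receptor that returns ER residents bearing a KDEL tail from the Golgi, had log2 signals of 7.86, 7.65 and 7.55 on the 3 GFP+ arrays, 8.48, 8.84 and 8.66 on the lectin-only arrays and 9.98, 9.66 and 9.75 on the columnar arrays. The 3 gates did not overlap, with the GFP+ arrays lowest and the columnar arrays highest. Kdelr3 fell by 2.11 on the log2 scale in the GFP+ against the columnar gate (SE 0.18, adjusted p = 7.04e-05), which is 4.31-fold lower, and by 1.13 (SE 0.18, adjusted p = 0.0031) in the lectin-only against the columnar gate.

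Sec24d, a cargo-binding subunit of the COPII coat, had log2 signals of 9.18, 9.09 and 9.26 on the GFP+ arrays, 9.69, 9.94 and 10.02 on the lectin-only arrays and 10.80, 10.41 and 10.31 on the columnar arrays. Its gates did not overlap either, and it fell by 1.33 (SE 0.18, adjusted p = 0.0011) in the GFP+ against the columnar gate, or 2.51-fold. Sec23b, a partner of Sec24 proteins in the inner coat, had signals of 10.80, 10.88 and 10.92 on the GFP+ arrays, 11.25, 11.28 and 11.41 on the lectin-only arrays and 11.76, 11.59 and 11.65 on the columnar arrays. The arrays of each gate lay close together, and Sec23b fell by 0.80 (SE 0.15, adjusted p = 0.0059) in the GFP+ against the columnar gate, or 1.74-fold. Kdelr2, another KDEL receptor, had a difference of -0.27 (SE 0.17, adjusted p = 0.4) with an interval from -0.67 to 0.12. A dimmer probe set of Kdelr2 lay at -1.33 (SE 0.35) with an adjusted p of 0.0408 over all probe sets, so its probe sets disagreed.

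Of the 8 genes of the unfolded protein response, Ern2 alone was called (12.5% lower, against 6.83% of all genes). Ern2 encodes the IRE1 beta sensor, known from mucus-producing epithelia of the gut and airway. Its log2 signals were 8.01, 7.83 and 7.14 on the GFP+ arrays, 8.51, 8.94 and 8.75 on the lectin-only arrays and 9.07, 9.61 and 9.42 on the columnar arrays. No gate overlapped another, and Ern2 fell by 1.71 (SE 0.26, adjusted p = 0.0018) in the GFP+ against the columnar gate, or 3.27-fold.

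The transcription factors of the response differed less. Xbp1, which Ern1 and Ern2 activate by splicing its mRNA, had signals of 11.24, 11.29 and 10.93 on the GFP+ arrays, 11.56, 11.42 and 11.20 on the lectin-only arrays and 11.75, 11.70 and 11.47 on the columnar arrays. The GFP+ arrays lay below the columnar arrays, but the difference of -0.48 (SE 0.18, adjusted p = 0.127, interval -0.89 to -0.07) did not pass over all genes. The other 3 probe sets of Xbp1 gave -0.50, -0.51 and -0.63. Atf4, a factor raised at the level of translation, had signals of 12.46, 12.38 and 12.04 on the GFP+ arrays, 12.30, 12.37 and 12.18 on the lectin-only arrays and 12.56, 12.37 and 12.51 on the columnar arrays. These ranges overlapped, and the GFP+ minus columnar difference was -0.19 (SE 0.17, adjusted p = 0.58, interval -0.57 to 0.19). Ddit3 (CHOP), a factor of prolonged stress, had signals of 7.82, 7.62 and 7.49 on the GFP+ arrays, 7.29, 7.81 and 8.02 on the lectin-only arrays and 8.07, 7.45 and 7.57 on the columnar arrays. Its gates overlapped fully, with differences of -0.06 in GFP+ minus columnar and 0.00 in lectin-only minus columnar (SE 0.24 each, lowest adjusted p = 0.929). Atf6, Herpud1 (a membrane protein of ER-associated degradation), Manf and Creld2 (secreted or luminal stress proteins) lay between -0.14 and 0.13 in GFP+ minus columnar. The probe sets of Atf6 disagreed: a second one, of nearly the same mean signal (8.49, against 8.50 for the first), lay at -0.55 (SE 0.26) and the third at -0.61 (SE 0.32), against 0.01 for the first, and none passed the test. The activity of Xbp1, Atf4 and Atf6 is set by splicing, translation and cleavage, which a summed mRNA signal does not measure.

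**Figure D2:**
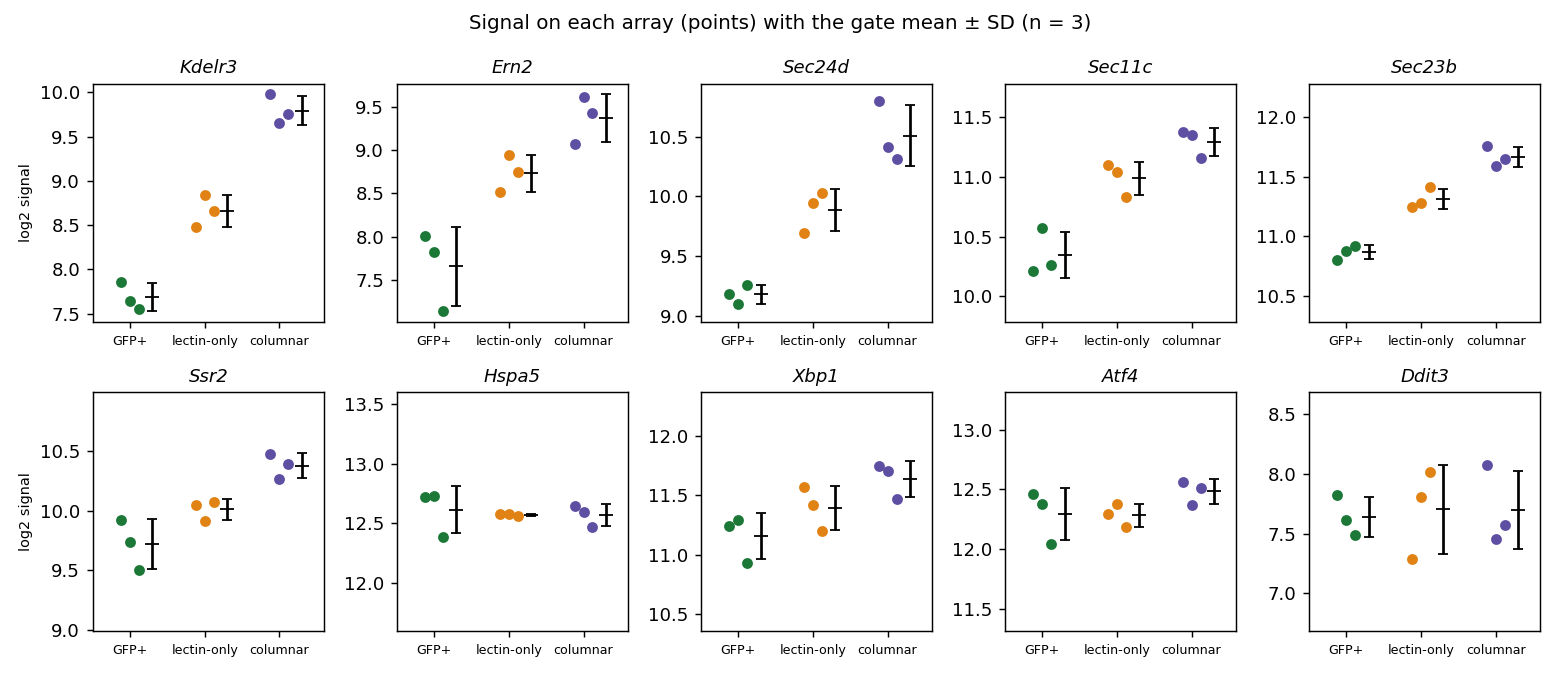
Log2 signal (y axis) of 10 genes on each array (points), with the gate mean ± SD (n = 3) to the right of the points, for the GFP+, lectin-only and columnar gates (x axis). The upper row and Ssr2 step up from GFP+ to columnar, while Hspa5, Atf4 and Ddit3 overlap between gates.

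The luminal chaperones held no called gene: limma called 0 of 9 in GFP+ minus columnar, and 1 of 9 had an unadjusted p under 0.05. Over all genes 6.83% were called lower and 7.32% higher, so 0 calls in so short a list does not set it apart. The same holds for the lists below with 0 called. Hspa5, the central chaperone of the ER lumen, had log2 signals of 12.72, 12.73 and 12.38 on the GFP+ arrays, 12.57, 12.57 and 12.56 on the lectin-only arrays and 12.64, 12.60 and 12.47 on the columnar arrays. The gates overlapped, and the difference was 0.04 (SE 0.16, adjusted p = 0.923) in GFP+ minus columnar, with a 95% interval from -0.32 to 0.41. A second Hspa5 probe set also gave 0.04. Dnajb9, a co-chaperone of Hspa5, differed by 0.01 (interval -0.36 to 0.38), and the lectin chaperones Calr and Canx by -0.22 and -0.14. Hsp90b1 (the ER Hsp90) and Hyou1 (an exchange factor for Hspa5) lay at -0.23 and -0.21, and Dnajb11 at -0.27. Dnajc3, a co-chaperone, had the largest chaperone difference at -0.60 (SE 0.22, adjusted p = 0.106, interval -1.09 to -0.12), with its 5 probe sets between -0.65 and -0.42. Sdf2l1 lay at -0.58 (SE 0.28, adjusted p = 0.252).

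Disulfide formation also held 0 called genes of 7 by limma, with 1 of 7 at an unadjusted p under 0.05. Ero1b, an oxidase that recharges disulfide isomerases, came closest at -0.62 (SE 0.20, adjusted p = 0.0717). It was called with arrays centred on their medians (-0.73, adjusted p = 0.0179), and its dimmest probe set lay at -1.16. Its relative Ero1a, which low oxygen is known to induce, lay at -0.11. The isomerases P4hb, Pdia3, Pdia4, Pdia5 and Pdia6 lay between -0.46 and 0.07, of which P4hb was the most precise (-0.29, SE 0.15, interval -0.62 to 0.05).

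Among the 14 measured genes of targeting, translocation and signal cleavage, 2 were lower in the GFP+ than in the columnar gate (14.3%, against 6.83% of all genes). Sec11c, a catalytic subunit of the signal peptidase, had log2 signals of 10.21, 10.57 and 10.26 on the GFP+ arrays, 11.10, 11.04 and 10.83 on the lectin-only arrays and 11.38, 11.35 and 11.16 on the columnar arrays. The gates did not overlap, and Sec11c fell by 0.95 (SE 0.17, adjusted p = 0.005), or 1.93-fold. Its second, dimmer probe set gave -0.86.

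Ssr2, a subunit of the translocon-associated complex, had signals of 9.92, 9.74 and 9.50 on the GFP+ arrays, 10.05, 9.91 and 10.08 on the lectin-only arrays and 10.48, 10.27 and 10.39 on the columnar arrays. The lectin-only arrays lay between, touching the GFP+ range, and Ssr2 fell by 0.66 in the GFP+ against the columnar gate (SE 0.17, adjusted p = 0.0295). Its call was lost without any 1 of the 3 columnar arrays or without GFP+ replicate 2 or 3, with differences from -0.71 to -0.55 and adjusted p from 0.0581 to 0.117. The other subunits of that complex, Ssr1, Ssr3 and Ssr4, lay at -0.01, -0.26 and -0.29. A dim probe set of Ssr1 lay at 0.95 (adjusted p = 0.0118 over all probe sets), against -0.01 for the brightest one. The channel subunits Sec61a1 and Sec61b lay at -0.03 and -0.20, their partners Sec62 and Sec63 at -0.21 and -0.19, and the signal recognition particle subunit Srp9 at -0.23. The 4 dimmer probe sets of Sec63 lay between -0.89 and -0.26. Of the 5 dimmer ones of Sec61a1, 1 lay at -0.03 and the others between -0.80 and -0.48, and none of these probe sets of Sec63 or Sec61a1 passed the test. The accessory signal peptidase subunits Spcs1, Spcs2 and Spcs3 lay at -0.27, -0.54 and -0.15, and the translocation factor Tram1 at -0.37. All 14 differences were below 0, the nearest to it being Ssr1.

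More members kept the gates apart array by array than passed the test. The GFP+ arrays lay wholly below the columnar arrays for 21 of the 42 genes (50.0%), against 17.8% of all genes, and wholly above them for 0 of the 42, against 15.8% of all genes. These counts are not a test, and they carry the scaling of the arrays: centring each array on its median moved the all-gene median difference to -0.15, against -0.04 without centring. The members were also bright as a set, with array medians of 10.67 to 11.54 against 6.92 to 7.52 over all genes. Their median SE was 0.18, against 0.24 over all genes. The shares over all genes, here and below, were not matched for signal or spread.

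Lectin-binding cells that lacked the reporter were then set against the columnar cells. Kdelr3 was lower, as given above, and was the 1 gene called of the 42 (2.38%, against 3.05% of all genes called lower), a share near the background. It was 1.13 lower also without lectin-only replicate 3 (adjusted p = 0.0085). Limma called 0 of the 42 higher, against 7.58% of all genes. At an unadjusted p under 0.05, 0 were higher and 5 lower, counts that were not made over all genes. Kdelr3 also passed a 2-fold threshold, which 2.38% of all genes passed downward and 6.47% upward. The lectin-only arrays lay wholly below the columnar arrays for 10 of the 42 (23.8%, against 8.61% of all genes) and wholly above them for 1, Ero1a (against 16.0% of all genes). Sec24d and Ern2 lay at -0.62 (SE 0.18, adjusted p = 0.0658) and -0.63 (SE 0.26, adjusted p = 0.182), and Sec11c, Sec23b and Ssr2 at -0.30, -0.35 and -0.37. With arrays centred on their medians 3 genes were lower (Kdelr3, Sec24d and Sec23b). Ero1a lay at 0.38 (SE 0.21, adjusted p = 0.359), and its signals of 10.50, 10.41 and 10.93 on the lectin-only arrays were all above those of 10.16, 10.29 and 10.25 on the columnar arrays. A second Ero1a probe set lay at 0.91 and was called (adjusted p = 0.0297 with second probe sets in place of first). Hspa5 differed by 0.00 (SE 0.16, interval -0.37 to 0.36).

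The GFP+ gate was compared with the lectin-only gate to set the reporter-positive against the reporter-negative lectin-binding cells. Kdelr3 fell by 0.98 in the GFP+ gate (SE 0.18, adjusted p = 0.0156), or 1.97-fold, and was again the 1 gene called lower, 2.38% of the 42 against 3.16% of all genes. The call was lost with arrays centred on their medians (-0.85, adjusted p = 0.0528) and without GFP+ replicate 2 (-0.96, adjusted p = 0.0534) or 3 (-0.91, adjusted p = 0.0604). Limma called 0 of the 42 higher, against 1.01% of all genes. At 2-fold 0 of the 42 were called either way, against 2.84% of all genes called lower and 0.896% called higher. At an unadjusted p under 0.05, 7 of the 42 were lower and 0 higher, counts that were not made over all genes. The GFP+ arrays lay wholly below the lectin-only arrays for 8 of the 42 (19.0%, against 13.3% of all genes) and wholly above them for 0 (against 5.24%). Ern2 lay at -1.07 (SE 0.26, adjusted p = 0.0516), Sec24d at -0.71 (adjusted p = 0.0694), Sec11c at -0.64 (adjusted p = 0.0777) and Sec23b at -0.45 (adjusted p = 0.159), and all 4 of these were among the 8. With a variance trend and robust moderation all of these but Sec23b were called, so that 4 genes were lower with Kdelr3. The leukocyte markers that set the lectin-only gate apart moved with this comparison, with 13 of 14 lower in the GFP+ gate. The log2 of their summed signal was 12.67 to 13.47 in the GFP+ gate, 15.18 to 15.60 in the lectin-only gate and 13.91 to 13.94 in the columnar gate. Lyz2 made up a large part of the GFP+ and columnar sums. Its signals were 12.29 to 13.13 on the GFP+ arrays and 13.78 to 13.87 on the columnar arrays. The part of the leukocyte markers in these differences was not tested.

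**Figure D3:**
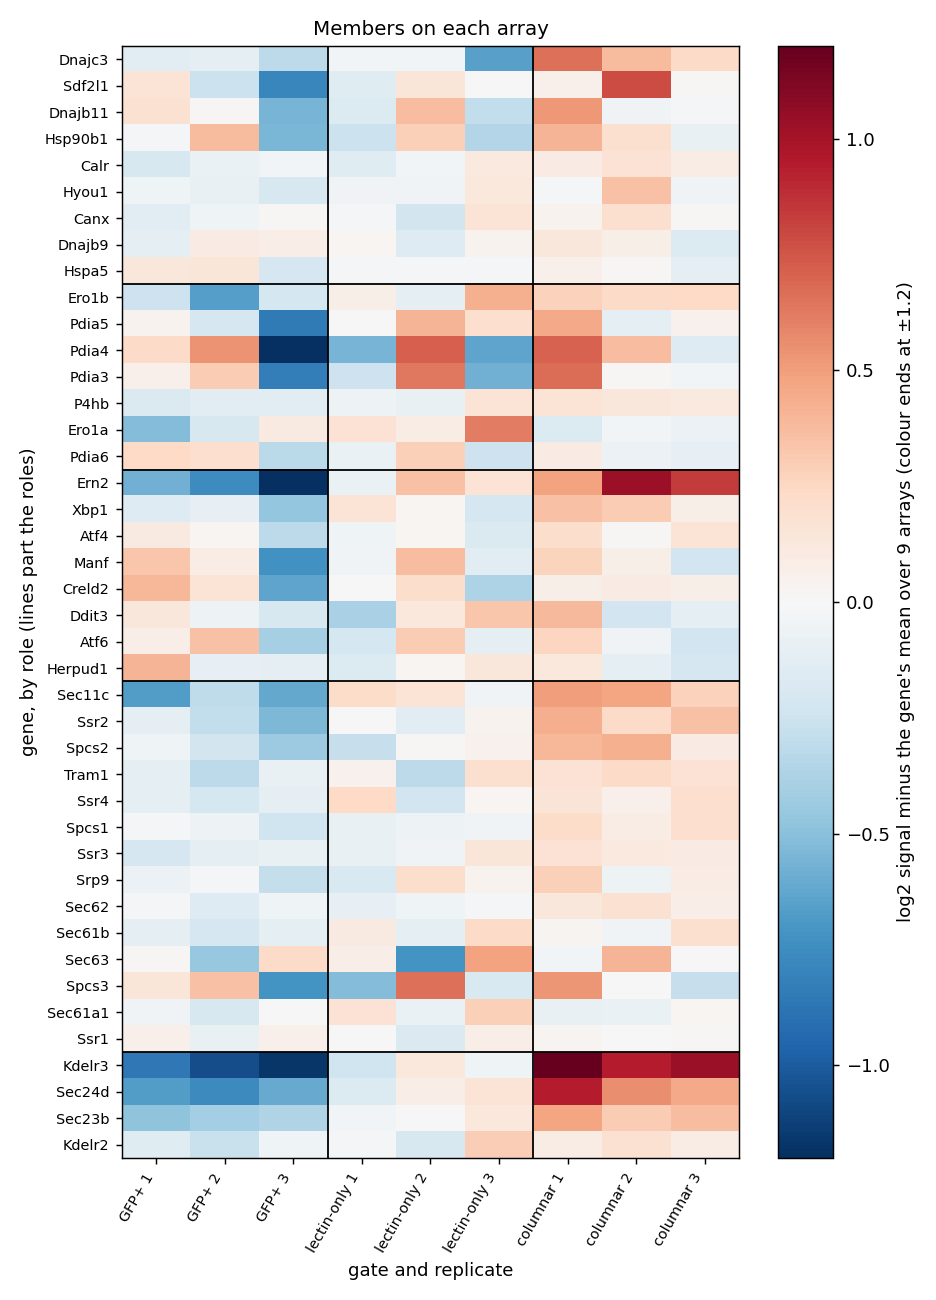
Log2 signal of each of the 42 genes (rows, grouped by role) minus the gene's mean over the 9 arrays, as colour, for each array (columns, GFP+ then lectin-only then columnar). Kdelr3, Sec24d and Ern2 differ by gate, while Pdia3, Pdia4, Spcs3, Manf and Creld2 vary among arrays of 1 gate, with GFP+ replicate 3 low.

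For many of the genes the arrays of 1 gate differed by more than the gates did. In 28 of the 42 the widest range within a gate was larger than the largest difference between gate means. This count was not made over all genes, so it does not set the members apart. The members' median SD was 0.19 in the GFP+, 0.19 in the lectin-only and 0.14 in the columnar gate. Over all genes it was 0.22, 0.33 and 0.22. Pdia4, a disulfide isomerase, had signals of 9.42, 9.73 and 7.97 on the GFP+ arrays, 8.63, 9.91 and 8.56 on the lectin-only arrays and 9.90, 9.56 and 9.03 on the columnar arrays. GFP+ replicate 3 and lectin-only replicates 1 and 3 were low, and the range of 1.76 within the GFP+ gate exceeded its largest gate difference of 0.46. Pdia3 had signals of 11.61, 11.85 and 10.72 on the GFP+ arrays, 11.30, 12.18 and 10.97 on the lectin-only arrays and 12.21, 11.56 and 11.51 on the columnar arrays, again with GFP+ replicate 3 low. Creld2 had 10.73, 10.50 and 9.70 on the GFP+ arrays against 10.41, 10.43 and 10.41 on the columnar arrays, so its columnar arrays agreed within 0.02 while the GFP+ arrays spanned 1.03. GFP+ replicate 3 was the lowest GFP+ array for 24 of the 42 genes, a count that was also not made over all genes.

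The 3′ to 5′ signal difference of control probe sets, a measure of RNA integrity and amplification length, also differed within and between gates. For Actb it was 1.42, 1.90 and 2.40 on the log2 scale on the GFP+ arrays, 1.72, 1.69 and 2.29 on the lectin-only arrays and 1.03, 1.93 and 1.81 on the columnar arrays. GFP+ replicate 3 was thus the highest of the 9 arrays and columnar replicate 1 the lowest. For Gapdh it was 1.32, 1.97 and 2.07 on the GFP+ arrays, 1.60, 1.82 and 1.74 on the lectin-only arrays and 1.28, 1.48 and 1.54 on the columnar arrays, with the same highest and lowest arrays. For Gapdh the columnar arrays lay wholly below the lectin-only arrays and overlapped the GFP+ arrays, while for Actb the columnar arrays overlapped both other gates. GFP+ replicate 3 had the lowest Pdia4 signal of the 9 arrays. GFP+ replicate 2 and lectin-only replicate 2 had the highest Pdia4 signal of their gates. Their Gapdh differences were 1.97 and 1.82, and their Actb differences 1.90 and 1.69. The part of the 3′ to 5′ difference in the variation of Pdia3, Pdia4 and the others, and in the differences between gates, was not tested. Without GFP+ replicate 3, the differences of Kdelr3, Ern2, Sec24d, Sec11c and Sec23b between the GFP+ and columnar gates were called as before, and that of Ssr2 was not.

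The ER stress response element lay in promoters of 8 of the 32 genes (Calr, Canx, Creld2, Dnajc3, Ero1b, Hsp90b1, Hspa5 and Pdia6). It lay in those of 0.138% of the 14452 measured genes with a promoter of that length. A related element, ATTGG, any 1 base, then CCACG, lay in those of Dnajb11 and Herpud1, against 0.062% of the measured genes. Both strands were searched, and the elements overlap in letters: CCAAT is ATTGG on the opposite strand, and CCACG also lies within CCACGTCA. Limma called 0 of the 8 in GFP+ minus columnar, with 2 of 8 at an unadjusted p under 0.05, and their differences ran from -0.62 to 0.07 with a median of -0.18. TGACGTGG lay in promoters of 0.989% of the measured genes. It lay 30 to 23 bases before the start of Kdelr3 and 26 to 19 bases before that of Sec24d. Beyond the members, 141 measured genes held TGACGTGG, of which 15 (10.6%) were lower and 8 (5.67%) higher in the GFP+ than in the columnar gate, against 6.83% and 7.32% of all genes. The palindrome TGACGTCA lay in 0 of the 32, against 2.92% of the measured genes. These matches are letters in a window, and the motifs were chosen with the differences known. The first 3 motifs were taken as known elements of the ER stress response, so their shares among these members are not a test.

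Of 111 other genes of the same pathway, 110 were measured, and 10 were lower and 0 higher in the GFP+ than in the columnar gate, with a median difference of -0.29 beside -0.04 over all genes. The 10 are 9.09% of the 110, near the 6.83% of all genes called lower, while 7.32% of all genes were called higher. At an unadjusted p under 0.05, 35 were lower and 0 higher, again without a share over all genes. The ER membrane-bound transcription factors of the Creb3 family held the largest decrease among stress signalling genes. Creb3l1, which is cut free from the membrane to drive secretory pathway genes in bone and in goblet cells of the gut, had log2 signals of 5.83, 6.36 and 6.11 on the GFP+ arrays, 7.61, 7.77 and 7.91 on the lectin-only arrays and 9.03, 9.40 and 9.19 on the columnar arrays. Its gates were wide apart, and it fell by 3.10 in the GFP+ against the columnar gate (SE 0.19, adjusted p = 1.4e-05), or 8.60-fold. It was also lower by 1.44 in the lectin-only against the columnar gate (adjusted p = 0.0014) and by 1.66 in the GFP+ against the lectin-only gate (adjusted p = 0.0021). Its relatives Creb3l2 and Creb3l4 fell by 0.99 and 1.44 in the GFP+ against the columnar gate.

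Among other folding genes, the disulfide isomerase relatives Agr2, known to be needed for mucin production in the mouse gut, and Agr3 were lower. Agr2 had signals of 11.95, 12.65 and 12.21 on the GFP+ arrays, 13.42, 13.35 and 13.38 on the lectin-only arrays and 13.72, 13.62 and 13.66 on the columnar arrays. The lectin-only arrays lay close to the columnar ones, and Agr2 fell by 1.40 in the GFP+ against the columnar gate (SE 0.20, adjusted p = 0.0011) and by 1.12 in the GFP+ against the lectin-only gate (adjusted p = 0.013), while lectin-only minus columnar was -0.28 (adjusted p = 0.479). Agr3 fell by 3.98 in the GFP+ against the columnar gate (SE 0.33, adjusted p = 6.95e-05), by 2.34 in the lectin-only against the columnar gate and by 1.65 in the GFP+ against the lectin-only gate (adjusted p = 0.0256). The last Agr3 call was lost without GFP+ replicate 1 or 2 or lectin-only replicate 1 or 3, at -1.71 to -1.34, and that of Agr2 without GFP+ replicate 1 (-0.96) or with its second probe set (-1.13, adjusted p = 0.119). The others lower in the GFP+ gate were Dnajc10 (an ER reductase) and Sil1 (an exchange factor of Hspa5) at -0.76 each, Erlec1 and Selenos (ER-associated degradation) at -0.83 and -0.58, and Mia3 (a loader of bulky cargo into COPII carriers) at -0.76. Ern1, the ubiquitous relative of Ern2, lay at -0.43 (SE 0.18, adjusted p = 0.162). Limma called 0 of 15 genes of N-glycosylation and glycan quality control, with 1 at an unadjusted p under 0.05, and 0 of 14 other targeting and translocation genes, with 2. The other lists held more genes lower at an unadjusted p under 0.05: 13 of 30 for ER to Golgi transport (1 called), 8 of 19 for folding and redox (4 called), 6 of 16 for degradation (2 called) and 5 of 16 for stress signalling (3 called). Without the share of all genes at that threshold, the unadjusted counts do not set these lists apart from other genes. With arrays centred on their medians 18 of the 110 were lower in the GFP+ against the columnar gate.

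**Figure D4:**
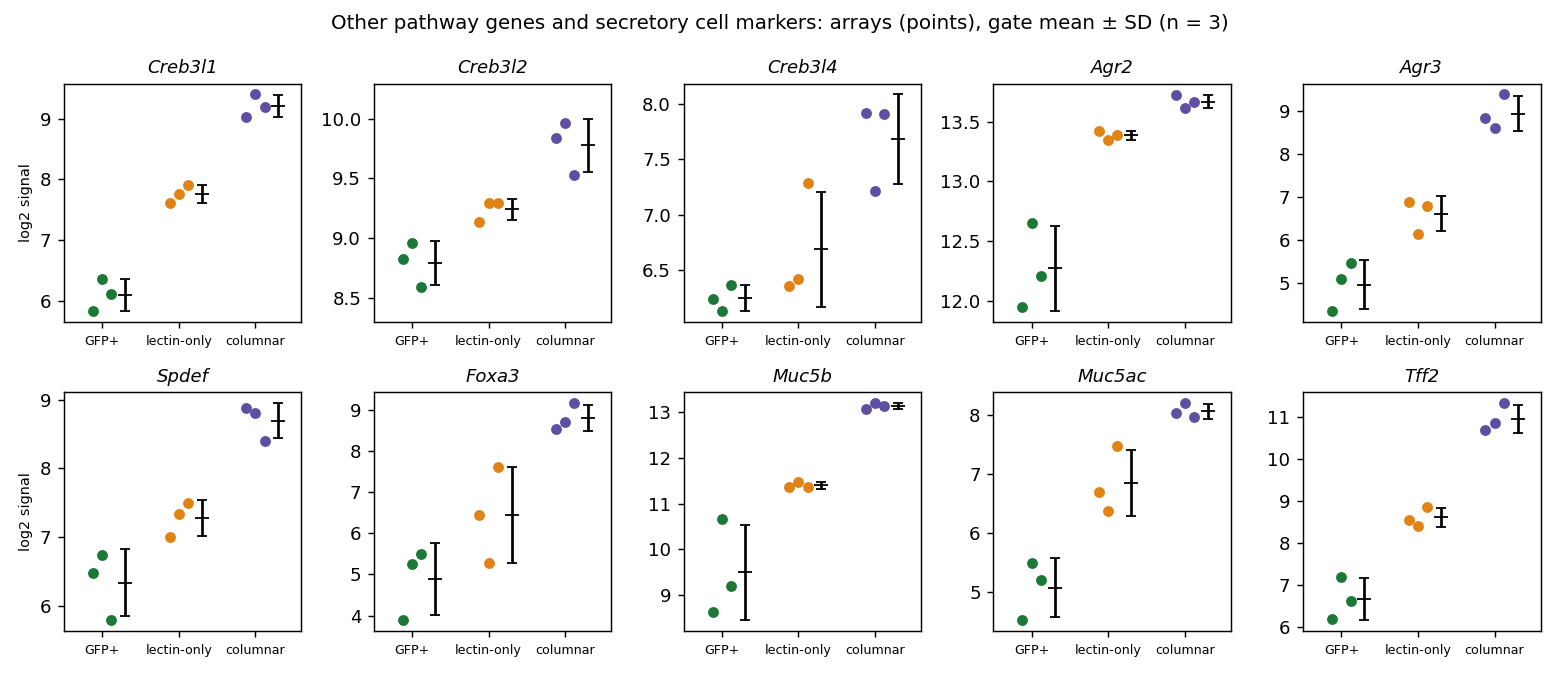
Log2 signal (y axis) on each array (points) with the gate mean ± SD (n = 3) for 5 other pathway genes (upper row) and 5 secretory cell markers (lower row) in the GFP+, lectin-only and columnar gates (x axis). Creb3l1 steps up across the gates, from means near 6 to means near 9, as the goblet cell markers do. Foxj1 of ciliated cells, not shown, also steps up, with means of 4.09, 5.44 and 7.30.

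Markers of mucus-making cells and of ciliated cells moved in the same comparisons. All 9 measured ciliated cell markers were lower in GFP+ minus columnar, 7 in lectin-only minus columnar and 3 in GFP+ minus lectin-only. Their median in GFP+ minus columnar was -3.46, against -1.50 for the club and goblet cell markers. Of 12 club and goblet cell markers, 7 were lower in the GFP+ than in the columnar gate, 6 in the lectin-only against the columnar gate and 3 in the GFP+ against the lectin-only gate, and 0 were higher in any of them. The log2 of their summed signal was 16.04 to 16.33 in the GFP+ gate, 16.31 to 16.47 in the lectin-only gate and 16.58 to 16.77 in the columnar gate, and 0 of the 12 lay under background in any gate. Muc5b, a gel-forming mucin, had signals of 8.63, 10.65 and 9.20 on the GFP+ arrays, 11.36, 11.48 and 11.36 on the lectin-only arrays and 13.07, 13.19 and 13.14 on the columnar arrays. Spdef, a transcription factor of goblet cells, fell by 2.36 in the GFP+ against the columnar gate (SE 0.27, adjusted p = 3.38e-04). Gland cell markers moved too: of 8 for submucosal glands, 4 were lower in the GFP+ than in the columnar gate (Dmbt1 at -2.78, Azgp1 at -2.26, Pigr at -2.23 and Lyz1 at -0.73), 1 in the lectin-only against the columnar gate (Azgp1) and 1 in the GFP+ against the lectin-only gate (Dmbt1). The log2 of their summed signal was 13.96 to 14.71 in the GFP+ gate, 15.06 to 15.15 in the lectin-only gate and 15.44 to 15.58 in the columnar gate, and Prol1 lay under background in all gates. Of 7 measured markers of plasma cells, which also have a large ER, 1 was lower in the GFP+ than in the columnar gate (Mzb1) and 1 higher in the lectin-only gate against the columnar gate (Prdm1). The log2 of their summed signal, which Sdc1 of epithelial cells dominates, was 13.28 to 13.31 in the GFP+ gate, 13.23 to 13.42 in the lectin-only gate and 12.88 to 13.10 in the columnar gate. Tnfrsf17 lay under background in all gates. Jchain lay between 2.67 and 2.76 on the GFP+ arrays, between 2.59 and 4.95 on the lectin-only arrays and between 2.79 and 4.55 on the columnar arrays, around the background level of 3.56. Of 12 early response genes of cell dissociation, 1 was higher in the GFP+ than in the columnar gate (Junb). The part of these cell types in the differences of Kdelr3, Ern2 and the others was not tested.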

How the data were processed

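The deposited values are log2 probe set signals, 1 column per array, made by the authors with RMA, per the submitters' processing notes. Software, version and filters are not given in the sources used here. Column medians showed that the arrays did not share 1 distribution. Of 45101 probe sets, 34945 were paired with 1 gene symbol in the platform annotation, and symbols were updated through RefSeq. The probe set of highest mean over the 9 arrays stood for a gene. Gate means of 18193 genes were fitted with limma 3.58.1 (R 4.3.3; 6 residual and 3.46 prior degrees of freedom), and p-values were adjusted by Benjamini-Hochberg within each comparison. A gene was called at an adjusted p under 0.05. Intervals are 95% intervals of the moderated fit. The background level, 3.56, is the 95th percentile of 80 olfactory and vomeronasal receptor probe sets. All members lay above it on all arrays. The fit was also run on simulated data with independent noise on each array. Such data hold no shift of a whole array and no shared replicate factor, and the outcome is not used here. The members, lists and motifs were chosen with earlier results of these data known. Values on every array are given for Hspa5, Xbp1, Atf4, Ddit3, Ern2 and the called members, and some of wide spread were added after their values were seen. Same-numbered arrays were not treated as pairs, since no label says what the shared numbers mark. Their deviations from gate means correlated between -0.07 and 0.33, against -0.47 to 0.17 for arrays of different numbers. Shared numbers may thus carry a common factor, and a fit with the replicate number as a block is given below. Precision is limited by having 3 arrays per gate, with a median SE of 0.18 over the 42 genes. P-values weigh a difference of gate means against the moderated spread among arrays within gates. The number of mice behind that spread is not given.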

Additional observations from a re-analysis of the deposited data

How the results depend on the processing

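Scaling, probe set choice, a filter on dim genes, variance trend, array weights, a replicate block, the arrays in the fit and each array were varied in turn. In GFP+ minus columnar the count of lower members was 6 and ran from 5 to 8 with 1 array left out, it was 9 with the mean of all probe sets or with array weights, 7 with arrays centred, quantile normalization, second probe sets, a variance trend or only the 2 gates in the fit, and 3 with a 2-fold threshold, and 0 members were higher under every alternative. The calls of Kdelr3, Ern2, Sec24d, Sec11c and Sec23b there held under all 18 alternatives of each, and that of Creb3l1 held in all 3 comparisons. Kdelr3, Ern2, Sec24d and Sec23b have 1 probe set each. The second probe set and the mean of all probe sets could therefore not change their differences, and these calls have no other probe set beside them. The median of the members was -0.28 to -0.21 there with 1 array left out. In lectin-only minus columnar the lower count was 1 with any array left out, 3 with arrays centred on their medians, 2 after a further quantile normalization (Kdelr3 and Sec24d) and 2 with a variance trend (Kdelr3 and Dnajc3), and 1 member, Ero1a, was higher with the second probe set or the mean of all probe sets (0.77). The members' median there was -0.14 and ran from -0.16 to -0.12 with 1 array left out. It was -0.37 with arrays centred, -0.21 after quantile normalization, -0.17 with second probe sets, -0.22 with the mean of all probe sets and -0.17 with array weights. In GFP+ minus lectin-only the lower count was 1 and ran from 0 to 1 with 1 array left out. It was 0 with arrays centred or with a 2-fold threshold, 2 with the mean of all probe sets or the dim-gene filter (Kdelr3 and Ern2) and 4 with a variance trend. The median was -0.13, from -0.18 to -0.07 with 1 array left out, and -0.0026 with arrays centred. Other pathway genes lower in GFP+ minus columnar were 10 and became 18 with arrays centred, and those lower in lectin-only minus columnar were 2 and became 10 with arrays centred and 7 after quantile normalization. Over all genes, centring gave a median of -0.16 in lectin-only minus columnar, against 0.07 as deposited, and calls of 1143 higher and 1085 lower, against 1379 and 554. The cause was not tested. With the replicate number as a block the lower counts were 6, 1 and 1, the calls of the named members and pathway genes did not change. No label says what the shared numbers mark, and the arrays were not treated as pairs. Signals were above background for all 42 members. Dimmer probe sets of some bright members lay further below 0 than the brightest one in GFP+ minus columnar (Kdelr2 -1.33 against -0.27, Calr -0.41 against -0.22), and whether signals are compressed at the bright end was not tested.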
